A study of Mus musculus with 4 samples.

Results

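Serotonin receptor genes of the mouse, 9 in all, were followed through RNA sequencing libraries of brain septal tissue: Htr1a, Htr1b, Htr2a, Htr2c, Htr3a, Htr4, Htr5a, Htr6 and Htr7. They were the rows with these symbols in the expression tables and made up 9 of 15409 genes listed. All 9 passed the filter on low values (a mean over the 4 libraries of 1 CPM or more, where CPM scales the reads of a gene to libraries of equal size), which 13912 genes passed. Mice without a functional beta chain of the T cell receptor (TCRb-/-) gave 2 libraries and wild-type mice (WT) gave 2. For each library the septal tissue of 4 to 5 mice was combined, so that a replicate is a pool and not an animal. Every mouse, wild type included, had been restrained for 30 min on each of 3 days and was killed 1.5 h after the last session, and no unrestrained group was analysed here. The labels give each genotype 1 library in experiment 1 and 1 in experiment 2. Strain, sex, age and the septal subregion are not given in the labels. The labels do not say whether genotypes were litter mates.

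Serotonin is made by neurons of the raphe nuclei, whose axons reach the septum and most of the forebrain. Its receptors are G protein-coupled except for the type 3 receptor, which is a cation channel: type 1 and type 5 receptors couple to Gi/o proteins and lower cAMP or open potassium channels, type 2 receptors couple to Gq and phospholipase C, and types 4, 6 and 7 couple to Gs and raise cAMP. The septum lies between the lateral ventricles and beside the striatum, and it is known for its part in anxiety, stress responses and the hippocampal theta rhythm.

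The deposited tables name genes by symbol only, and positions are those of the GENCODE annotation of GRCm38. Htr1a (ENSMUSG00000021721.5) lies on chr13:105443639-105448122, plus strand, in 1 exon. Htr1b (ENSMUSG00000049511.5) lies on chr9:81628291-81633828, minus strand, and Htr2a (ENSMUSG00000034997.5) on chr14:74640840-74709494, plus strand. Htr7 (ENSMUSG00000024798.15) lies on chr19:35958734-36057507, minus strand, and its longest transcript has 5 exons. The remaining members are on chromosomes 5 (Htr5a), X (Htr2c), 9 (Htr3a), 18 (Htr4) and 4 (Htr6), so that Htr1b and Htr3a share a chromosome. The sequences just upstream of the 4 receptor genes that differed between the experiments are shown because 3 of these genes were lower in experiment 2 and 1 was higher. Each is the 100 bases before the outermost annotated start, 5′ to 3′ on the strand of the gene, from the RefSeq promoter table for GRCm38.p6. Capitals mark a GC box in Htr1a and Htr2a and a CCAAT box in Htr1b, which in Htr1b and Htr2a lies on the other strand and so is printed as its reverse complement.
Htr1a, chr13:105443539-105443638, plus strand: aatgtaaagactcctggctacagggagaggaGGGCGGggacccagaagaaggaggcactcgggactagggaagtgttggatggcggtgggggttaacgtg
Htr1b, chr9:81633833-81633932, minus strand: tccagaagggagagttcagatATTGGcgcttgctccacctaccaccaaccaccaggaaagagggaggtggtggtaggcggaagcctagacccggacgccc
Htr2a, chr14:74640740-74640839, plus strand: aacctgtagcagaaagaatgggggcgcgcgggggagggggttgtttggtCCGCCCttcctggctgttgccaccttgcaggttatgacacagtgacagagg
Htr7, chr19:36057508-36057607, minus strand: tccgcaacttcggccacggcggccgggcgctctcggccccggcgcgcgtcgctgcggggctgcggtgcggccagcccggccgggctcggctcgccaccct

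For comparison, 4 motifs were searched on both strands of the 100-base windows of all 32851 promoters in the table. Those windows end just before the RefSeq start. The receptor windows end before the outermost start, which for Htr1a, Htr2a and Htr7 lies upstream of the RefSeq start (105443693, 74640874 and 36057360). For these genes the shares and the mean GC content of all windows therefore come from unlike positions. The GC box, spelled GGGCGG, was in 24.7% of all windows and occurred once each in Htr1a and Htr2a. The CCAAT box, searched by those 5 letters, was in 18.9% of all windows and occurred once in Htr1b. The TATA box, spelled TATAAA, was in 5.56% of all windows and in none of the 4 receptor windows. The full cAMP response element TGACGTCA was in 1.15% of all windows and likewise in none of the 4. No match to any of the 4 was in the window of Htr7, which had a GC content of 83% against 59% for Htr1a, 60% for Htr1b and Htr2a and a mean of 55.6% over all windows. The 3 genes that were lower in experiment 2 therefore shared no searched motif across all 3. A match is a run of letters and does not show that a factor binds there.

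Depth ranged from 19988137 to 26210790 reads, and the genotype labels were checked with Trbc2, a constant segment of the deleted receptor chain. WT replicates 1 and 2 had 169 and 86 Trbc2 reads, whereas TCRb-/- replicates 1 and 2 had 0, for upper limits of 0.122 and 0.150 CPM. Septal markers were present, with 11 of 12 genes of the list found (Drd3 is not among the listed rows) and a summed level of 303 to 374 CPM. Markers of neighbouring tissue were also present and differed between the experiments. The 15 choroid plexus genes summed to 1345 to 2197 CPM in experiment 1 and to 4262 to 6996 CPM in experiment 2. The 13 striatal genes summed to 4998 to 5594 CPM in experiment 1 and to 1352 to 3020 CPM in experiment 2. The septal genes summed to 303 to 309 CPM in experiment 1 and to 350 to 374 CPM in experiment 2. Of these, 3 of 11 were called higher and 1 lower in experiment 2, where 8.95% of all genes were called higher and 14.7% lower. The libraries of experiment 2 therefore stand apart from those of experiment 1 in which marker genes they hold, and in bulk tissue fewer cells of a type cannot be told apart from less RNA per cell.

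Htr7 had the highest level per length of the 9 genes, and Htr7, Htr2c and Htr1a together held most of the summed signal of these 9. Levels of different genes are compared as CPM per kb of the longest annotated transcript, as the mean ± SD over the 4 libraries. Htr7 stood at 20.6 ± 5.44 CPM per kb (SD, n = 4), Htr2c at 6.96 ± 0.269 and Htr1a at 5.59 ± 1.08. Htr1b followed at 2.52 ± 0.812, Htr3a at 1.97 ± 0.253 and Htr6 at 1.20 ± 0.286. The lowest were Htr4 at 0.836 ± 0.186, Htr5a at 0.650 ± 0.0768 and Htr2a at 0.534 ± 0.283 CPM per kb. The ranges over the 4 libraries did not overlap between Htr7 and Htr2c, between Htr1a and Htr1b, or between Htr3a and Htr6, and all other neighbours in this order overlapped. The place of Htr2c depends on its length, since it was at 3.65 CPM per kb, below Htr1a, when divided by the union of its exons (9328 bases) in place of its longest transcript (4883 bases).

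By coupling class, the Gs receptors Htr4, Htr6 and Htr7 took 49.2% of the summed CPM per kb of the 9 genes in TCRb-/- replicate 1 and 48.5% in WT replicate 1. In experiment 2 they took 64.5% in TCRb-/- replicate 2 and 57.4% in WT replicate 2. The Gi/o receptors Htr1a, Htr1b and Htr5a took 26.2% and 27.2% in the TCRb-/- and WT libraries of experiment 1, and 14.3% and 19.5% in those of experiment 2. The Gq receptors took between 16.7% and 20.4%, and the channel subunit Htr3a between 4.24% and 5.45%. As a description with no test, the Gs and Gi/o shares differed more between the experiments than between the genotypes, and the channel share was lower in both TCRb-/- libraries than in both WT libraries. Most of the Gs share was Htr7 alone, at 42.2% to 61.4% of the sum. These shares leave out Htr1d, Htr1f and Htr5b, Gi/o receptor genes that are not members. They averaged 4.31, 1.44 and 1.40 CPM per kb over the 4 libraries, so the Gi/o share would be larger with them. The order of the Gs and Gi/o classes therefore holds for the 9 members only. The Gq share depends on the length taken for Htr2c, at 6.96 or 3.65 CPM per kb.

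**Figure D1:**
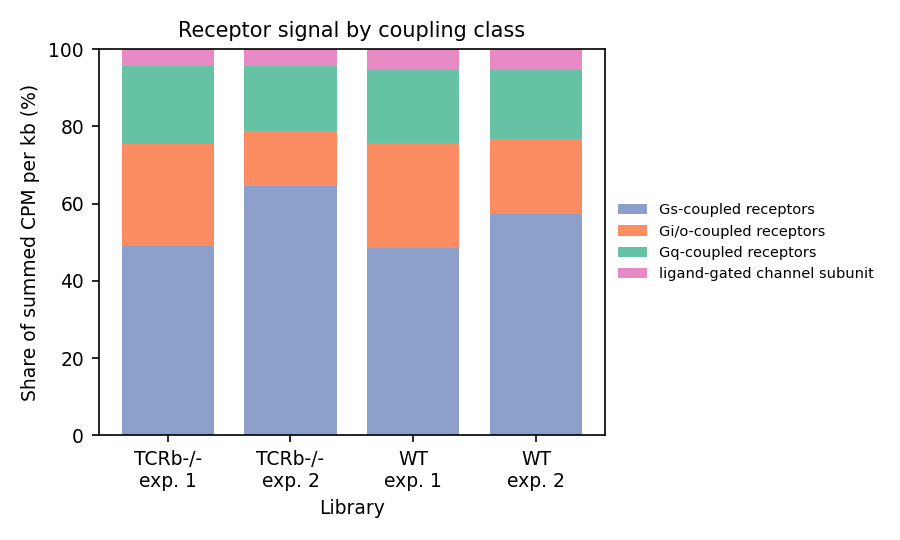
Share of the summed CPM per kb of the 9 serotonin receptor genes held by each coupling class (y axis, percent, from 0) in each of the 4 libraries (x axis). The Gs share is 48.5% to 49.2% in the libraries of experiment 1 and 57.4% to 64.5% in those of experiment 2, and the Gi/o share is smaller in both libraries of experiment 2. The Gi/o genes Htr1d, Htr1f and Htr5b are not members and are left out.

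The first comparison asked whether receptor levels differed between TCRb-/- and WT septal tissue. No receptor gene passed the test. With limma on log2(CPM + 1) and Benjamini-Hochberg adjustment at 0.05, 0 of 9 receptors and 0 of 13912 genes (0%) were called, and an unadjusted p under 0.05 was reached by 0 of 9 receptors and by 43 genes (0.309%). With the experiment as a block, limma called 2 genes (0.0144%), Trbc2 and the choroid plexus gene Ttr, and 0 of 9 receptors, and an unadjusted p under 0.05 was reached by 784 genes (5.64%) and by 1 receptor, Htr1a. Without the block Trbc2 was not called (log2 difference -2.59, unadjusted p = 0.000157 in limma), although both TCRb-/- libraries had 0 reads of it. A gene not called in that fit may therefore still differ between the genotypes. The smallest two-sided p that exact permutation of 2 against 2 libraries allows is 0.33.

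**Figure D2:**
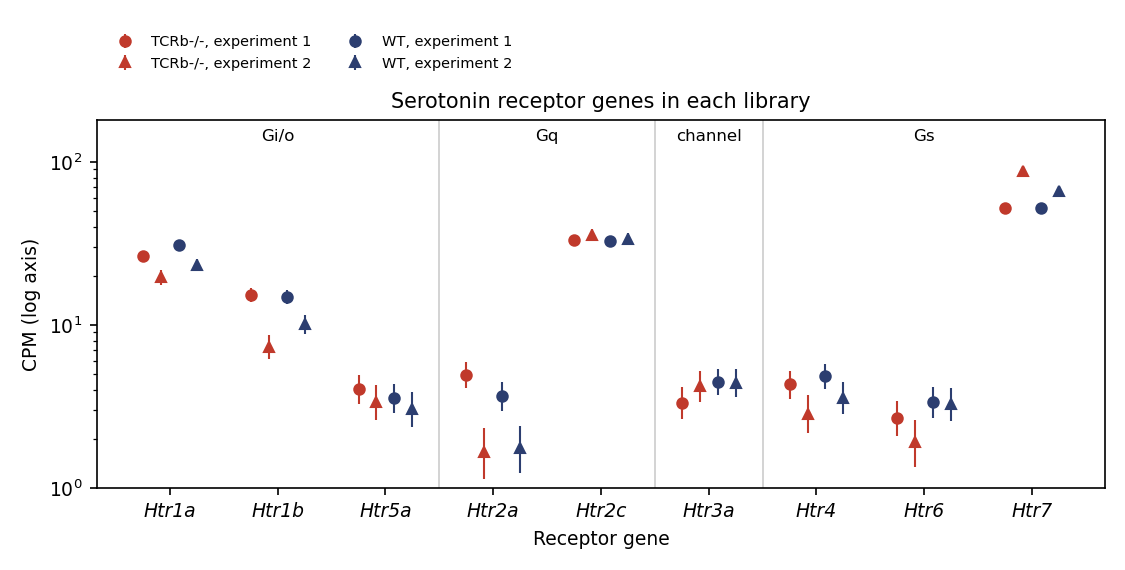
Level of each receptor gene in CPM (y axis, log scale) in the 4 libraries, with genes grouped by coupling class (x axis); bars are exact 95% intervals for counting error. Htr7 is the highest in every library at 52.1 to 88.6 CPM, and Htr3a and Htr6 are the genes with both TCRb-/- points below both WT points.

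Among the Gi/o receptors, Htr1a, which acts as the autoreceptor on raphe neurons and as an inhibitory receptor on many forebrain neurons, stood in TCRb-/- at 26.4 CPM (replicate 1) and 19.6 CPM (replicate 2) and in WT at 31.0 CPM (replicate 1) and 23.3 CPM (replicate 2); values below keep this order. The genotypes overlapped, although TCRb-/- was the lower library in both experiments. The fitted difference, TCRb-/- minus WT on log2(CPM + 1), was -0.23 (SE 0.22; adjusted p = 1.00 in limma). With the experiment as a block the SE was 0.098, the unadjusted p was 0.0472 and the adjusted p was 0.848, so that the block did not change the call.

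Htr1b, the presynaptic receptor that reduces transmitter release from axon terminals, had 15.3 and 7.35 CPM in TCRb-/- and 14.8 and 10.1 CPM in WT. The spread between the 2 TCRb-/- libraries was larger than the difference between the genotypes, which was -0.18 (SE 0.37). The exons of Htr1b share 852 bases with the antisense gene D430036J16Rik, which had 123 to 244 reads, or 60.2% to 83.7% of the Htr1b reads in the same library. Whether the authors' counting used strand is not given in the sources used here, so reads of this pair cannot be told apart with certainty. Htr5a, a less studied Gi/o receptor of forebrain neurons, had 4.03 and 3.35 CPM in TCRb-/- and 3.55 and 3.04 CPM in WT, a difference of 0.13 (SE 0.20) between overlapping groups.

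Of the Gq receptors, Htr2a, the cortical receptor at which hallucinogens act, had 4.92 and 1.65 CPM in TCRb-/- and 3.66 and 1.74 CPM in WT. Both genotypes had their high library in experiment 1, the groups overlapped, and the difference of 0.15 (SE 0.46) had the widest error of the 9 genes. That SE includes the difference between the experiments, and with the experiment as a block it was 0.19. The lowest of these values rests on 33 reads, with an exact 95% interval of 1.14 to 2.32 CPM. Htr2c, known for its high level in choroid plexus epithelium and for the editing of its transcript, had 33.4 and 35.9 CPM in TCRb-/- and 32.9 and 33.9 CPM in WT. It varied least among the 9 genes relative to its mean, at 34.0 ± 1.31 CPM (SD, n = 4), and its genotype difference was 0.05 (SE 0.14).

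Each experiment had all 15 of the 15 choroid plexus genes at a higher level in TCRb-/-, where 27% of all genes tested were higher in both experiments, with 2197 against 1345 CPM summed in experiment 1 and 6996 against 4262 CPM in experiment 2. Without the block 0 of these 15 genes were called by genotype in limma, and with it 1 was, Ttr, which encodes the thyroid hormone carrier transthyretin (adjusted p = 0.0323). Htr2c did not follow these sums in size, with a genotype difference of 0.02 in experiment 1 and 0.08 in experiment 2. Whether choroid plexus RNA contributes to the level of Htr2c was not tested.

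Htr3a and Htr6 were the 2 of 9 receptors whose genotypes did not overlap. In both the TCRb-/- libraries were lower, which held for 8.04% of all genes tested. Htr3a, the obligatory subunit of the serotonin-gated channel, had 3.34 and 4.20 CPM in TCRb-/- and 4.46 and 4.43 CPM in WT, a difference of -0.20 (SE 0.20; adjusted p = 1.00 in limma). Its partner subunit Htr3b is not among the listed rows. Htr6, a Gs receptor found mainly in neurons of the striatum, cortex and hippocampus, had 2.68 and 1.90 CPM in TCRb-/- and 3.36 and 3.26 CPM in WT. Its difference of -0.40 (SE 0.22; adjusted p = 1.00 in limma) ranged from -0.57 to -0.23 on leaving out 1 library, and TCRb-/- replicate 2 held the lowest value. These values rest on 38 to 88 reads, and the exact 95% interval of the lowest, 1.35 to 2.61 CPM, overlaps the 2.56 to 4.11 CPM of the WT library of the same experiment.

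For the Gs receptors Htr4 and Htr7 the genotypes overlapped. Htr4, a receptor of hippocampal and striatal neurons, had 4.31 and 2.85 CPM in TCRb-/- and 4.85 and 3.58 CPM in WT, with a difference of -0.19 (SE 0.26). Htr7, a receptor known for its high level in thalamus, hypothalamus and septum, had 52.1 and 88.6 CPM in TCRb-/- and 52.4 and 66.5 CPM in WT. The TCRb-/- library of experiment 2 stood above the rest, while the libraries of experiment 1 were nearly level, and the difference was 0.20 (SE 0.28). Counted over the 2 experiments, 4 of 9 receptors were lower in TCRb-/- in both (Htr1a, Htr3a, Htr4 and Htr6), as were 24.5% of all genes, and 2 were higher in both (Htr2c and Htr5a), as were 27% of all genes. The remaining 3, Htr1b, Htr2a and Htr7, had opposite signs in the 2 experiments, as did 48.4% of all genes. The median difference over the 9 receptors was -0.18, beside 0.00069 over all genes tested. That median rests on single libraries, since it was -0.43 without TCRb-/- replicate 1, -0.0016 without TCRb-/- replicate 2, 0.03 without WT replicate 1 and -0.23 without WT replicate 2.

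The second comparison set experiment 2 against experiment 1, which the labels give as the batch. Receptor genes differed here. With limma and Benjamini-Hochberg adjustment 4 of 9 receptors were called, 3 lower and 1 higher in experiment 2, where 23.7% of all genes were called, 14.7% lower and 8.95% higher. Of the genes called 37.8% were higher, a share that was 50.7% with quantile normalization and 54.8% with centring by transcript length. The same 4 were called with genotype as a block, where 24.7% of all genes were. In level, 5 receptors were lower in both libraries of experiment 2 than in both of experiment 1 (37.2% of all genes) and 2 were higher in both (30.1% of all genes), so that non-overlap was common among genes in general.

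**Figure D3:**
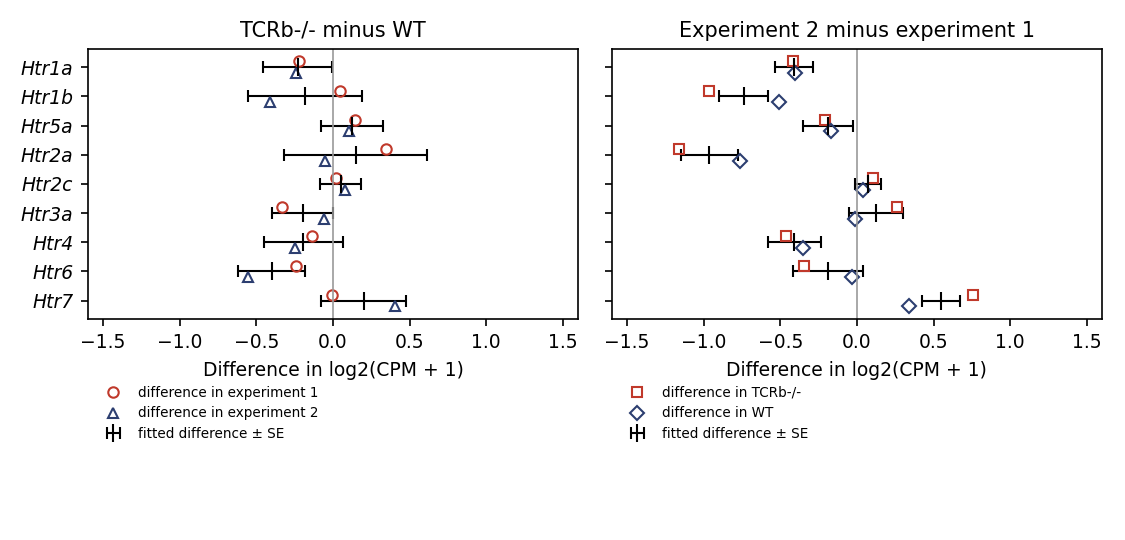
Differences in log2(CPM + 1) for each receptor gene (y axis), by genotype (left panel) and by experiment (right panel); open symbols are the difference within each experiment or genotype, and black bars the fitted difference ± SE from limma without a block. Fitted genotype differences lie between -0.40 and 0.20, and by experiment Htr2a (-0.96) and Htr1b (-0.74) lie farthest below 0 and Htr7 (0.55) farthest above.

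Here and below, an SD by experiment is taken over 1 TCRb-/- and 1 WT library, so it includes any difference between the genotypes. Htr2a fell the most among the 9, from 4.29 ± 0.890 CPM in experiment 1 to 1.70 ± 0.0660 CPM in experiment 2 (SD, n = 2), a ratio of 2.53 between the means. Its log2 difference was -0.96 (SE 0.19; adjusted p = 0.0128 in limma) and it was lower in both genotypes, by -1.16 in TCRb-/- and -0.76 in WT. Htr1b fell from 15.1 ± 0.375 to 8.73 ± 1.95 CPM (SD, n = 2), a ratio of 1.73 and a log2 difference of -0.74 (SE 0.16; adjusted p = 0.0171 in limma). The antisense D430036J16Rik, whose reads may be mixed with those of Htr1b, had 9.23 and 9.31 CPM in the libraries of experiment 1 and 6.15 and 7.78 CPM in those of experiment 2. Htr1a fell from 28.7 ± 3.24 to 21.4 ± 2.61 CPM (SD, n = 2), a ratio of 1.34 and a log2 difference of -0.41 (SE 0.12; adjusted p = 0.0493 in limma). This last call stood at the threshold and was lost under 8 of the 11 other ways of processing that kept all libraries, with adjusted p from 0.0217 to 0.178.

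Htr7 rose, from 52.2 ± 0.227 CPM in experiment 1 to 77.5 ± 15.6 CPM in experiment 2 (SD, n = 2), a ratio of 1.48. Its log2 difference was 0.55 (SE 0.12; adjusted p = 0.0200 in limma), with 0.76 in TCRb-/- and 0.34 in WT, so that it was higher in both genotypes. Among the members not called, Htr4 was lower at -0.41 (adjusted p = 0.120 in limma) with libraries that did not overlap. Htr5a at -0.19, Htr6 at -0.19, Htr2c at 0.07 and Htr3a at 0.13 had adjusted p between 0.430 and 0.632 in limma. Htr3a was the 1 receptor with opposite signs in the genotypes, as were 22.7% of all genes, at 0.26 in TCRb-/- and -0.01 in WT. Leaving out TCRb-/- replicate 1 ended all 4 calls (adjusted p from 0.0660 to 0.0788), leaving out WT replicate 1 left only Htr2a, and leaving out TCRb-/- replicate 2 ended that of Htr1a (adjusted p = 0.186 in limma), in fits where the lone library of an arm is taken to vary like the others.

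Long transcripts tended to be lower in experiment 2 than short ones, with Spearman's rho of -0.446 between length and the difference, across 13552 genes that are not independent replicates. When genes were split by length into 10 bins of about 1355 genes, the bin of Htr2a and Htr5a had a median difference of -0.22, that of Htr1b, Htr2c and Htr4 one of -0.18, that of Htr1a one of -0.11 and that of Htr7 one of -0.03. After each bin was centred on its median, a step added after the data had been seen, Htr2a stood at -0.72 (adjusted p = 0.0356 in limma) and Htr7 at 0.62 (adjusted p = 0.0193). Htr1b then stood at -0.53 (adjusted p = 0.0572) and Htr1a at -0.27 (adjusted p = 0.178), both no longer called. Htr2c moved from 0.07 to 0.28 with centring and was not called (adjusted p = 0.0670 in limma). With genotype as a block in the same centred fit, Htr1b was called (adjusted p = 0.0424 in limma) and Htr1a was not (adjusted p = 0.114).

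Markers of neighbouring regions also differed between the experiments. Of the 13 striatal genes 13 were lower in both libraries of experiment 2, as were 37.2% of all genes. All 13 were lowest in TCRb-/- replicate 2, a trait whose share over all genes was not computed. Htr1b (7.35 CPM), Htr1a (19.6 CPM) and Htr2a (1.65 CPM) were also lowest there, and so were Htr4 (2.85 CPM) and Htr6 (1.90 CPM), which were not called. Drd1, a dopamine receptor of striatal projection neurons, fell from 156 ± 15.0 to 53.5 ± 39.3 CPM and Adora2a, their adenosine receptor, from 94.3 ± 18.2 to 29.0 ± 21.7 CPM (SD, n = 2). Of the 11 cortical and hippocampal genes 9 were lower in both libraries of experiment 2, beside the same 37.2% of all genes. Their list had a sum of 427 to 489 CPM in experiment 1 and 203 to 235 CPM in experiment 2. Slc17a7, the vesicular glutamate transporter of cortical neurons, fell from 162 ± 22.4 to 22.5 ± 2.21 CPM (SD, n = 2).

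The 9 thalamic genes summed to 396 to 397 CPM in experiment 1 and to 524 and 825 CPM in WT and TCRb-/- replicates 2. Of these genes 9 of 9 were highest in TCRb-/- replicate 2, the library with the highest Htr7, and the share of all genes highest there was not computed. Tcf7l2, a transcription factor of thalamic neurons, rose from 50.1 ± 9.07 to 145 ± 52.1 CPM (SD, n = 2). In limma 5 of the 9 were called higher in experiment 2, where 8.95% of all genes were. The other 4, Prkcd, Ramp3, Rgs16 and Plekhg1, were not called. No gene of these 5 lists was at 0 in any library, and the lowest value was 0.700 CPM, for the cortical Neurod2 in TCRb-/- replicate 2. The part of these tissues in the receptor differences was not tested, and tissue content and experiment cannot be told apart with 2 libraries in each.

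**Figure D4:**
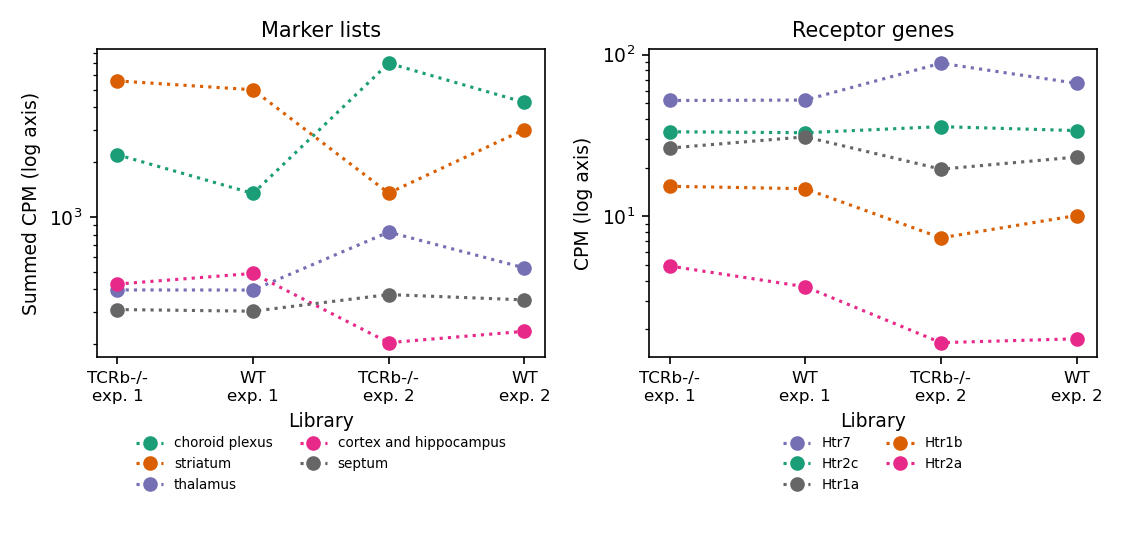
Summed CPM of 5 marker lists (left panel, log axis) and CPM of 5 receptor genes (right panel, log axis) in the 4 libraries (x axis, experiment 1 then experiment 2); dotted lines only join the points of 1 list or gene. TCRb-/- replicate 2 has the lowest striatal sum, the highest choroid plexus and thalamic sums, the highest Htr7 and the lowest Htr1a, Htr1b and Htr2a.

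For Htr3a, which in cortex marks a class of interneurons, 8 genes of such cells were followed. Between the experiments 4 of 8 fell (Vip, Reln, Lamp5 and Cnr1) and 1 rose, Calb2, from 321 ± 12.7 to 784 ± 180 CPM (SD, n = 2; adjusted p = 0.00386 in limma). Ndnf, Adarb2 and Npas1 were not called. Of all genes 14.7% were called lower and 8.95% higher. Vip, a neuropeptide gene, fell from 8.53 ± 1.42 to 3.41 ± 0.298 CPM, while Htr3a stood at 3.90 ± 0.798 and 4.32 ± 0.159 CPM in the experiments (SD, n = 2).

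Of the serotonin receptor genes that are not members, 3 of 5 are among the listed rows. Htr1d, a presynaptic Gi/o receptor close to Htr1b in sequence, fell from 16.7 ± 0.948 CPM in experiment 1 to 8.40 ± 2.61 CPM in experiment 2 (SD, n = 2), or by 0.94 on the log2 scale (adjusted p = 0.0144 in limma). Htr1f, also Gi/o-coupled, had 4.92 and 2.60 CPM in TCRb-/- and 4.43 and 2.95 CPM in WT and fell by 0.59 (adjusted p = 0.0381 in limma). Htr5b lay between 2.37 and 3.00 CPM and was not called. As for Htr1b and Htr1a, both falls were seen in both genotypes, and no gene of this list was called by genotype.

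Genes that make, store, take up or break down serotonin were called in 1 direction between the experiments: of 12 tested, 5 rose, 0 fell and 7 were not called, where 8.95% of all genes rose and 14.7% fell, with a median log2 difference of 0.26 beside -0.03 over all genes. Slc29a4, a low-affinity monoamine transporter, rose from 30.9 ± 3.65 to 57.3 ± 10.8 CPM, and Maob, a monoamine-degrading enzyme, from 58.5 ± 2.17 to 104 ± 32.9 CPM (SD, n = 2). Ddc, which makes serotonin and dopamine from their precursors, rose from 26.7 ± 2.39 to 38.1 ± 1.38 CPM. Pts, of cofactor synthesis, and Aldh2, an aldehyde dehydrogenase, also rose. Marker lists of neighbouring tissue, choroid plexus among them, also differed between the experiments. Whether tissue content has a part in these rises was not tested. Tph2, the rate-limiting enzyme of raphe neurons, had 0.850 to 1.56 CPM and was not called, and the serotonin transporter Slc6a4 is not among the listed rows, nor are the raphe regulators Fev, Gata3 and En1.

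Downstream of the receptors, the Gi/o list had 11 genes, of which 0 rose, 3 fell and 8 were not called between the experiments, with a median log2 difference of -0.02. Of all genes 8.95% rose and 14.7% fell, 23.7% in all, and the calls on this list were near that share. Rgs4, which speeds the shut-off of Gi/o and Gq signals, fell from 478 ± 32.0 to 248 ± 16.8 CPM (SD, n = 2), and Gnao1, the abundant neuronal Go subunit, from 449 ± 1.17 to 359 ± 5.13 CPM. Rgs20 was the third. The potassium channel genes Kcnj3, Kcnj5, Kcnj6 and Kcnj9, through which Htr1a hyperpolarises neurons, were not called.

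On the Gq list of 10 genes, 1 rose, 3 fell and 6 were not called (median -0.22), where 8.95% of all genes rose and 14.7% fell. The fallers were Itpr1, a calcium release channel, from 93.9 ± 3.36 to 42.9 ± 9.49 CPM, Plcb1, a phospholipase C, and Prkcb, a protein kinase C. The riser was Plcb4, another phospholipase C, from 70.9 ± 6.84 to 103 ± 11.2 CPM (SD, n = 2).

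On the Gs and cAMP list of 15 genes, 1 rose, 6 fell and 8 were not called (median -0.25), where 23.7% of all genes were called. With genotype as a block 1 rose and 8 fell, Prkacb and Creb1 being added, where 24.7% of all genes were called. Adcy5, the main adenylyl cyclase of striatal neurons, fell from 310 ± 24.9 to 121 ± 55.0 CPM, and Gnal, the striatal stimulatory G protein, from 404 ± 36.2 to 241 ± 35.2 CPM (SD, n = 2). Both are known as striatal genes, and the striatal marker list was also lower in experiment 2. Whether striatal tissue content has a part in these falls was not tested. Adcy1, Adcy3, Adcy9 and Prkar2b also fell. Gnas, the widely expressed stimulatory G protein, rose from 38.7 ± 0.725 to 63.1 ± 4.86 CPM, but its locus holds overlapping transcripts, so that its count is uncertain.

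Of 14 partners, chaperones and editing enzymes, 1 rose, 2 fell and 11 were not called (median -0.06), near the 23.7% called of all genes. The beta-arrestin Arrb1 fell from 95.8 ± 1.46 to 71.8 ± 0.491 CPM, the related Arrb2 rose from 33.1 ± 4.06 to 45.5 ± 3.33 CPM (SD, n = 2), and the RNA-editing enzyme Adar fell. Adarb1, which edits the Htr2c transcript, had 53.7 to 66.9 CPM and was not called. On each of these 5 pathway lists 0 genes were called by genotype in limma, with or without the block.

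The genes whose profile over the 4 libraries lay nearest to each receptor were found by the root mean square difference of log2(CPM + 1) after each gene's own mean was subtracted, among the 9817 genes that averaged 10 CPM or more. For Htr1b they were Sbk1 (0.0019), Nr2e1 (0.015) and Ctxn1 (0.023), and 185 genes lay within 0.1. For Htr7 they were Tm7sf2 (0.021), Fhad1 (0.023) and Igsf1 (0.029), with 79 genes within 0.1. For Htr2a, whose profile varied most, they were Arnt (0.042), Nin (0.060) and Smpd3 (0.066), and only 14 genes lay within 0.1. These profiles repeat the falls and the rise between the experiments given above.

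For the other members the nearest were Nbea, Gpr26 and Gm12258 to Htr1a, and Efna2, Taf1c and Zeb1 to Htr5a. Those nearest to Htr2c were Pdcd4, Ptov1 and Polr2e, and to Htr3a Dnm3, Usp34 and Hsp90ab1. Mpp3, Ash1l and Rims4 were nearest to Htr4, and Pfn4, Mars2 and Nme7 to Htr6. The number of genes within 0.1 was 3560 for the level profile of Htr2c and 28 for Htr6. With 4 libraries such nearness is a description of these pools.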

How the data were processed

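RNA was sequenced from 4 pools of septal tissue with a SMARTer low-input kit, per the labels' protocols. The submitters' processing notes name HISAT2 2.1.0, SAMtools 1.3, HTSeq 0.9.1, R 4.0.5, limma 3.46.0 and the mouse build mm10, without role or order. Neither the annotation nor strand use nor the row filter is stated in the labels or headers. The deposited values are on a log2 scale, 1 library per file per the file headers. They are the log2 of CPM with 0.5 added to the reads, which gave back whole read counts for 100% of the deposited values within 0.001 reads. Spike-in rows (17 of 15426) were left out, and 12 gene rows had a symbol that was not unique (no receptor among them). The count of 0 allows up to 3 reads per library. Intervals are exact (Clopper-Pearson, 95%) and, like that limit, cover counting error only, since amplified reads are not independent molecules.

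Values were tested as log2(CPM + 1), which understates changes of low genes, with limma 3.58.1 in R 4.3.3 (mean-variance trend, two-sided, Benjamini-Hochberg over 13912 genes, 0.05), tested on simulated data first. The simulated reads held no difference between experiments, so they do not show how often a true difference would be called in these libraries. No count model was used because the deposited unit is log2. Other steps used Python 3.11.15 (pandas 2.3.3, numpy 2.4.6, matplotlib 3.10.9, scipy 1.17.1). Lengths came from GENCODE, matched by symbol for 9 of 9 receptors.

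Same-numbered replicates come from the same experiment per the labels, which pairs the samples, and across genes their deviations from the mean of their genotype had a correlation of 0.72. The fit with the experiment as a replicate block was an alternative, beside leaving out each library, voom weights, no trend, quantile normalization, median-of-ratios scaling, a 10 CPM filter, no filter, and pseudocounts of 0.1 and 5. Centring within 10 bins of transcript length was added after the data had been seen. Replicates differed beyond sampling noise (chi-square per degree of freedom 52.1 for TCRb-/- and 30.3 for WT). The labels do not say that the pools share no animals, so p-values measure only the spread between these pools.

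The members and lists were chosen with earlier results of these data known. The rule took in all members, the 3 nearest profiles of each, Trbc2, list genes past the threshold and up to 3 of the most abundant genes of each list. All members, their nearest profiles and Trbc2 are named. Of the list genes only some are, picked for their role after their values were seen, and the rest are given by counts. Microglial and endothelial lists were also summed, at 131 to 145 and 6.57 to 10.8 CPM.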

Additional observations from a re-analysis of the deposited data

Results flagged for a closer look

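The genotype difference had opposite signs in the 2 experiments for Htr1b, Htr2a and Htr7, with 1 library per genotype in each experiment. TCRb-/- minus WT on log2(CPM + 1) was 0.048 in experiment 1 and -0.41 in experiment 2 for Htr1b. For Htr2a it was 0.34 in experiment 1 and -0.05 in experiment 2. For Htr7 it was -0.0087 in experiment 1 and 0.41 in experiment 2. The difference between experiments had opposite signs in the genotypes for Htr3a, at 0.26 in TCRb-/- and -0.01 in WT. None of these differences of differences was tested, since 1 library in each cell of the design leaves no spread to test them with. A sign change between the experiments was seen in 48.4% of all genes tested, and one between the genotypes in 22.7%.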

How the results depend on the processing

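No receptor was called by genotype under any alternative run. The count of all genes called by genotype was 0 except with the replicate block (2), the block with centring by length (3) and on leaving out a library (0 to 47, the 47 without TCRb-/- replicate 1 and 1 without TCRb-/- replicate 2). Between the experiments the count of genes was 629 without the trend, 1997 with centring, and 1406 to 3390 on leaving out a library (1406 without TCRb-/- replicate 1, 1823 without TCRb-/- replicate 2, 1637 without WT replicate 1), where an arm is left with fewer samples. The count of receptors called was 1 without the trend (Htr2a), 2 with centring, 3 with centring and the replicate block (Htr1b was then called), and 0 to 4 on leaving out a library (0 without TCRb-/- replicate 1, 3 without TCRb-/- replicate 2, 1 without WT replicate 1). Without the trend Htr1b had an adjusted p of 0.0551 and Htr7 of 0.0791 in limma. The count of receptors was 3, without Htr1a, for a pseudocount of 5, no filter, median-of-ratios scaling, quantile normalization and voom weights. It was also 3 with the 10 CPM filter, which left Htr2a out. It stayed at 4 with a pseudocount of 0.1 and with the replicate block alone. Htr5a turned from lower to higher with centring, at 0.056 with and without the replicate block. On leaving out a library the genotype difference changed sign for Htr1b (-0.67 to 0.30), Htr2a (-0.43 to 0.73), Htr2c (-0.0016 to 0.10), Htr4 (-0.43 to 0.038) and Htr7 (-0.18 to 0.58), and the difference between experiments for Htr3a (-0.040 to 0.29) and Htr6 (-0.47 to 0.090). The cause of the other changes was not tested. Without centring, the replicate block changed no call of a receptor. Depth limits the low receptors: Htr2a rests on 33 to 121 reads and Htr6 on 38 to 88 reads per library.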
